A study of Mus musculus with 2 samples.

Results

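The 10 genes described here encode proteins that carry the signal of a chemokine receptor to the actin cytoskeleton: the G alpha subunits Gnai2, Gnai3 and Gna13, the receptor kinase Grk6, the beta-arrestins Arrb1 and Arrb2, the GTPase Rac2, and the exchange factors Dock2, Vav1 and Arhgef1. They were taken by name from the array annotation, where Grk6 stands under its older symbol Gprk6. All 10 were found, with 18 of the 41174 distinct gene probes, and all 10 were among the 17683 genes tested. All 18 probes were well above background in both genotypes on both arrays.

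B cells of peripheral lymph nodes, sorted from Ccr7 knock-out mice (strain B6.129P2(C)-Ccr7tm1Rfor/J) were compared with B cells of wild-type C57BL/6J mice, and RNA was taken right after the sort. The RNA of 12 sorted samples, 6 per genotype, had been combined in pools of 3. Each of 2 two-colour arrays held 1 knock-out and 1 wild-type pool. Cy5 marked the knock-out pool on array 1, and Cy3 marked it on array 2. The array was the unit of replication (n = 2), and an exact sign test of 2 ratios cannot give a two-sided p below 0.5. The scanner read each array at 2 gains, and the brightest spots carry values scaled up from the lower gain. Levels are given as normalized log2 intensities, which can be compared between genotypes within a probe but not between probes. Ages, sex and the sorting gate are not given in the sources used here.

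Chemokine receptors such as CCR7 are coupled to heterotrimeric G proteins of the Gi class. On activation the alpha subunit separates from beta and gamma, and downstream exchange factors load Rac with GTP, which drives actin polymerisation and migration. Receptor kinases phosphorylate the occupied receptor, and arrestins then bind it and end the coupling to G proteins. In lymphocytes Dock2 is a main Rac activator below chemokine receptors, whereas Gna13 and Arhgef1 form a separate branch that restrains migration.

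None of the 10 genes differed between the genotypes by the fit across all genes. With limma, 0 of 10 passed an adjusted p of 0.05, where 0.102% of all genes passed, and 0 of 10 passed an unadjusted p of 0.05, where 9.12% of all genes did. The smallest adjusted p among them was 0.563. The largest difference was that of Dock2, with a mean of 0.29 as log2 of knock-out over wild-type. The median log2 ratio was -0.0078 over the 10 genes and -0.0078 over all genes. Of the 10 genes, 2 were higher in the knock-out on both arrays (Gnai3 and Dock2), 3 were lower on both (Arrb1, Arrb2 and Vav1), and 5 had opposite signs. Over all genes, 24.2% were higher on both arrays and 30% lower on both, 54.2% in all with one sign. Gnai2, Gnai3, Gna13, Grk6 and Rac2 belonged to the brightest decile of genes, and 4 of these 5 had opposite signs. In that decile the ratios of the 2 dye-swapped arrays were negatively correlated across 1769 genes (Pearson r -0.498, genes not being independent replicates), and 46.6% of the genes had one sign. In the other 9 deciles r lay between 0.122 and 0.328. By their brightest probes, 0 of the 10 genes had levels that did not overlap between the genotypes over both arrays, against 22.9% of all genes.

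The size of a difference that the fit leaves room for can be read from its 95% intervals. For all 10 genes the interval lay within a 2-fold difference in either direction. The widest bound was that of Rac2, 1.51-fold higher in the knock-out. This bound depended on the scaling of the arrays. With median centring 4 of the 10 intervals lay within 2-fold and the widest bound was 2.33-fold, and with no within-array normalization 0 of 10 did and it was 3.56-fold, both for Arrb1 as lower in the knock-out. These intervals rest mainly on a spread pooled over all genes, and they do not measure the spread between single mice. Missing the threshold does not show that the genotypes had equal levels.

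**Figure D1:**
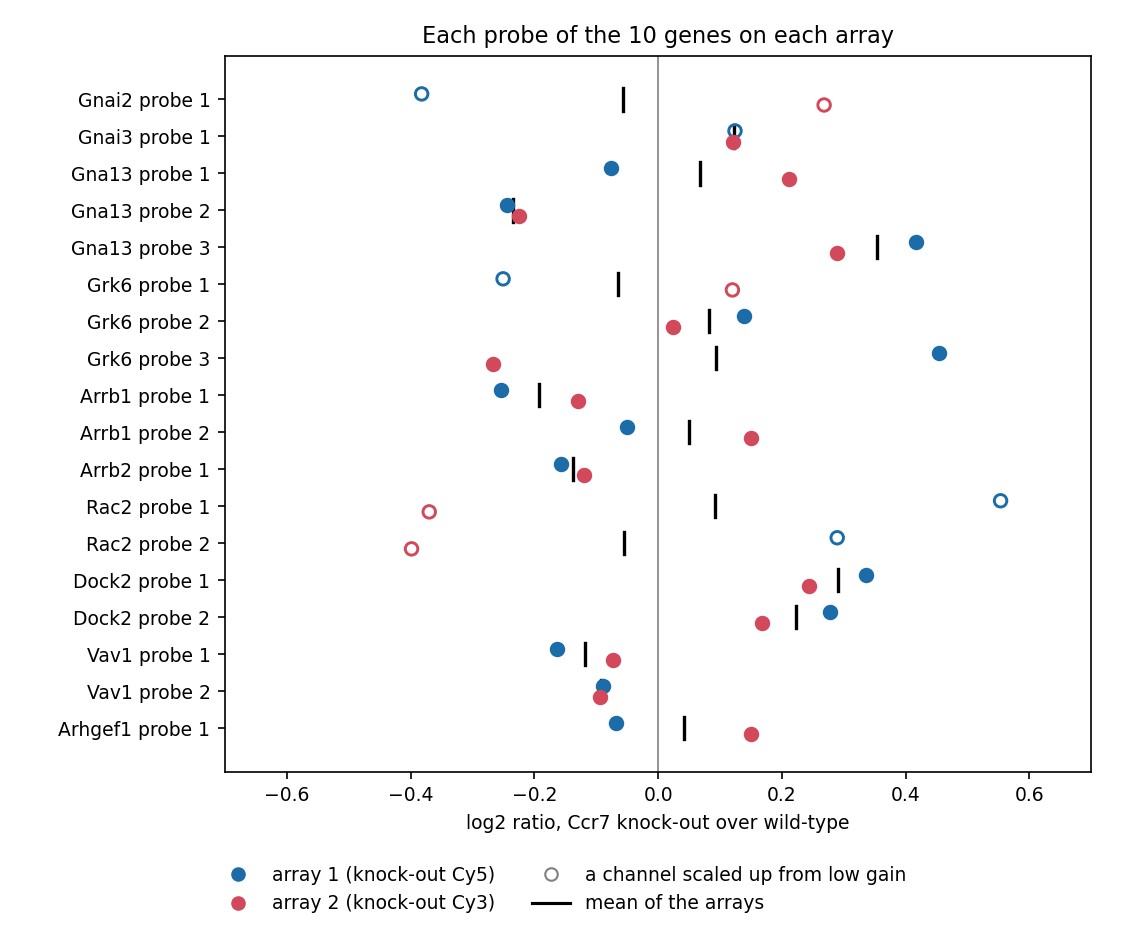
Log2 ratio of Ccr7 knock-out over wild-type for each of the 18 probes, on array 1 (blue) and array 2 (red), with the mean of the arrays as a black bar. Probes of a gene are numbered from the brightest, and open circles mark a spot with a channel taken from the low-gain scan. Both Dock2 probes lie right of 0 on both arrays, while the Rac2 and Gnai2 probes lie on opposite sides of 0.

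Among the G alpha subunits, Gnai2 and Gnai3 belong to the Gi class that couples chemokine receptors. Gnai2 had normalized log2 intensities of 14.59 and 14.52 in the knock-out pools of arrays 1 and 2, against 14.97 and 14.25 in the wild-type pools. The knock-out values lay between the wild-type values, so the ratio was -0.38 on array 1 and 0.27 on array 2. Its mean was -0.06 ± 0.18 (SE, n = 2), with a limma adjusted p of 0.98. The difference of 0.65 between the arrays was wider than the 0.195 that was the median over all genes. The Gnai2 spot was bright enough to carry a value scaled up from a second scan at low gain, in both genotypes on array 1 and in the wild-type on array 2.

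Gnai3 had 14.16 and 13.44 in the knock-out, against 14.04 and 13.31 in the wild-type. The knock-out was slightly higher on each array, with ratios of 0.12 and 0.12, although the levels of the genotypes overlapped across arrays. The mean was 0.12 ± 0.13 (SE, n = 2), which is 1.09-fold, with a limma adjusted p of 0.885. The knock-out value of array 1 was scaled up from low gain. The probes of Gnai2 and Gnai3 shared no run longer than 5 bases, although the genes are close relatives.

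Gna13, the alpha subunit of the branch that restrains migration, was read by 3 probes that differed among themselves. They are shown because they carry this disagreement. The first 30 bases of each 60-base probe are given in lower case, 5′ to 3′, in order of brightness, with no base marked. All lie on the plus strand of chromosome 11 on mm8, at chr11:109217062-109217121, chr11:109196363-109196422 and chr11:109212884-109212943.
Gna13 brightest probe: cttagtagaggcacacagtgcagaccttat
Gna13 second probe: aaatctacttagagaaaaaggcaattctga
Gna13 dimmest probe: gtcctgcagttctaagaataggcagtatct

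The brightest Gna13 probe had log2 levels of 13.75 and 13.85 in the knock-out, against 13.83 and 13.64 in the wild-type. The genotypes overlapped, and the mean ratio was 0.07 ± 0.14 (SE, n = 2; limma adjusted p 0.967). The second probe had 12.10 and 11.50 in the knock-out, against 12.34 and 11.72 in the wild-type, and its ratios were -0.24 and -0.23. The dimmest had 8.09 and 8.80 in the knock-out, against 7.67 and 8.51 in the wild-type, with ratios of 0.42 and 0.29. Each of these 2 probes kept its own sign on both arrays, and their signs opposed each other, so the mean ratio per probe ranged from -0.24 to 0.35. The brightest and dimmest probes carry a RefSeq transcript in the file, and the second carries a cDNA clone. Whether the probes read different transcript ends was not tested. Gna13 lies 10.3 Mb from Ccr7 on the same chromosome, where sequence of the donor strain can accompany the targeted allele. Its part in the Gna13 ratios was not tested.

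Grk6, a kinase that phosphorylates occupied receptors, had 14.51 and 14.58 in the knock-out, against 14.76 and 14.46 in the wild-type, by its brightest probe. The knock-out values lay inside the wild-type range. The ratios of -0.25 and 0.12 gave a mean of -0.07 ± 0.14 (SE, n = 2; limma adjusted p 0.969). Its other probes, neither of them scaled up, had mean ratios of 0.08 and 0.09. The dimmest had 0.45 on array 1 and -0.27 on array 2.

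The arrestins stop G-protein coupling and link receptors to endocytosis. Arrb1 had 12.81 and 12.26 in the knock-out, against 13.06 and 12.39 in the wild-type. The knock-out was lower on each array, by ratios of -0.25 and -0.13, but the levels overlapped across arrays. The mean was -0.19 ± 0.13 (SE, n = 2), which is 1.14-fold lower, with a limma adjusted p of 0.759. A second, much dimmer Arrb1 probe had ratios of -0.05 and 0.15. Its mean of 0.05 does not have the sign of the bright probe.

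Arrb2 had 12.08 and 11.71 in the knock-out, against 12.24 and 11.83 in the wild-type. The ratios of -0.16 and -0.12 were close to each other, with a mean of -0.14 ± 0.13 (SE, n = 2) and a limma adjusted p of 0.858. Arrb2 lies 28.7 Mb from Ccr7 on chromosome 11. Neither arrestin gene had a scaled-up spot. The Arrb1 probes shared no run longer than 5 bases with the Arrb2 probe.

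**Figure D2:**
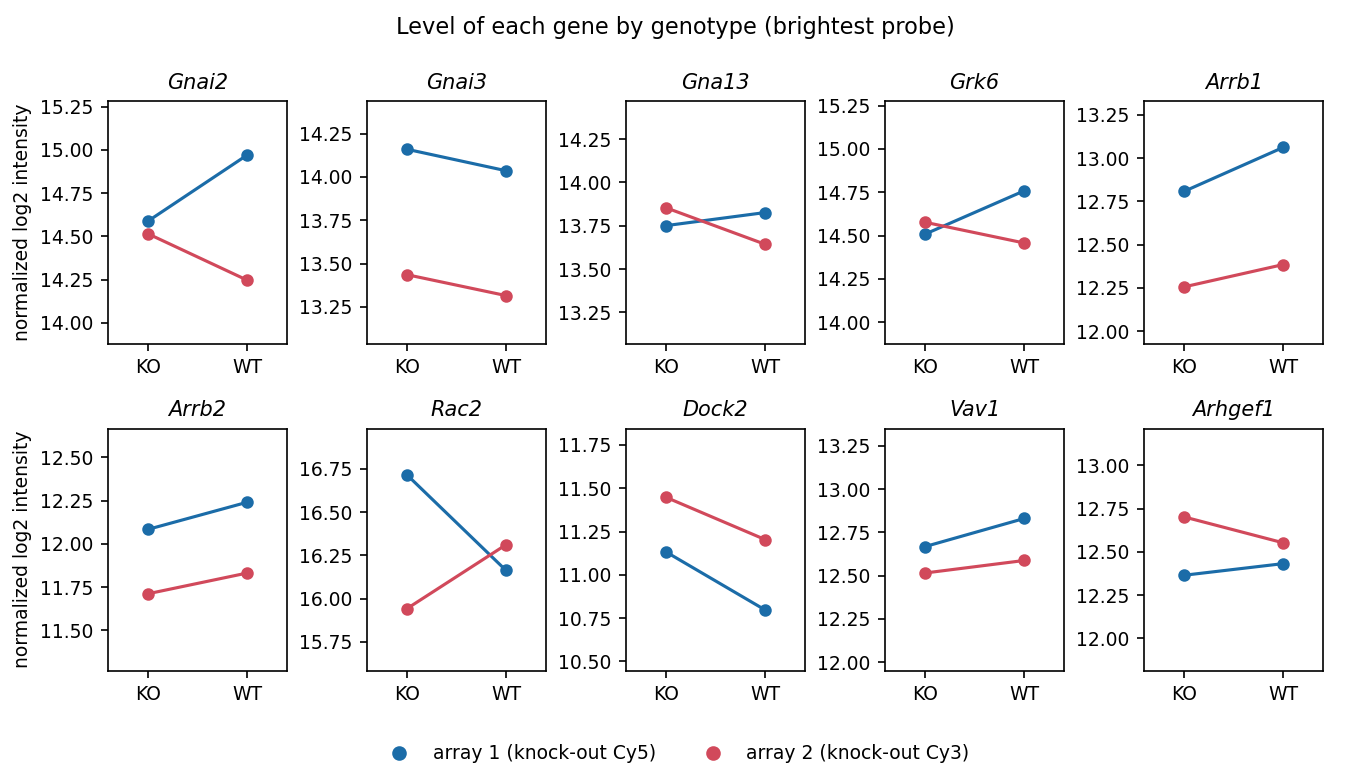
Normalized log2 intensity of the brightest probe of each gene in knock-out (KO, left) and wild-type (WT, right) pools, with a line joining the pools of one array (array 1 blue, array 2 red). Every panel spans the same range on its vertical axis, and levels of different genes are not comparable. On both arrays the knock-out end of the line is the higher one for Gnai3 and Dock2 and the lower one for Arrb1, Arrb2 and Vav1, and the lines of Rac2 and Gnai2 slope in opposite ways.

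Rac2 is the Rac GTPase of blood cells and acts below both Dock2 and Vav1. It was read by 2 probes with 33 bases between them, on the minus strand at chr15:78388370-78388429 and chr15:78388277-78388336 on mm8. They are shown because they read nearly the same stretch of the genome and their values depend on how bright spots were handled. The first 30 of 60 bases are given, 5′ to 3′, with no base marked.
Rac2 brighter probe: atggcctgccactagtgtgttcgccatgtt
Rac2 dimmer probe: tcagaaaagcacagaacaaatctacttcag

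The brighter Rac2 probe had 16.72 and 15.94 in the knock-out, against 16.16 and 16.31 in the wild-type. The knock-out was higher on array 1 and lower on array 2, with ratios of 0.55 and -0.37 and a mean of 0.09 ± 0.21 (SE, n = 2; limma adjusted p 0.971). The dimmer probe did likewise, with 0.29 and -0.40. Both genotypes of both probes were scaled up on both arrays. The channel labelled with Cy5 was the brighter one each time.

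In the deposited value table the same probes were lower in the knock-out on both arrays. There the brighter Rac2 probe had ratios of -0.19 and -0.21 and the dimmer one -0.45 and -0.13. The mean of the brighter probe was -0.20, with a limma adjusted p of 0.79. On array 1 the sign of Rac2 thus differed between the spot intensities and that table, and neither value passed the threshold. Which of them is nearer to the RNA level was not tested.

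Of the 10 genes, 4 had a scaled-up channel by their brightest probe (Gnai2, Gnai3, Grk6 and Rac2), against 9.21% of all genes. Their array-to-array differences in the log2 ratio were 0.65, 0.003, 0.371 and 0.923 in that order, with a median of 0.235 over all scaled-up genes. For the other 6 genes they ran from 0.037 for Arrb2 to 0.287 for Gna13, with a median of 0.192 over all genes without a scaled-up channel. The spots of these 6 genes were not themselves taken from the low-gain scan. The within-array normalization of their ratios still used all gene spots, scaled-up ones included. Gna13 belonged to the brightest decile, where 1599 of 1769 genes had a scaled-up channel.

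Dock2 is the exchange factor that loads Rac with GTP in lymphocytes. It had the largest ratio of the 10 genes, and its 2 probes are shown because both had this sign. They lie on the minus strand at chr11:34129586-34130706 and chr11:34131691-34132820 on mm8. These spans of 1121 and 1130 bases exceed the 60-base probes, so each probe joins separate stretches of the genome. The first 30 bases are given, 5′ to 3′, with no base marked.
Dock2 brighter probe: agcgtggtgtttgcagacgagaaggcagca
Dock2 dimmer probe: cttcaagaacctgaaaatgaaggtggaaaa

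The brighter Dock2 probe had 11.13 and 11.45 in the knock-out, against 10.80 and 11.20 in the wild-type. The knock-out was higher on each array, with ratios of 0.34 and 0.24, while the genotypes overlapped across arrays. The mean of 0.29 ± 0.13 (SE, n = 2) is 1.22-fold, with a 95% interval from 0.992-fold to 1.51-fold. The unadjusted p was 0.0575 and the limma adjusted p 0.563, so the gene did not pass. When no filter was set on dim probes, the unadjusted p was 0.035 and the adjusted p 0.568. The dimmer probe had 9.32 and 9.46 in the knock-out, against 9.04 and 9.29 in the wild-type. Here the genotypes did not overlap, as for 9.56% of all genes in this direction, and the ratios were 0.28 and 0.17. Dock2 lies 64.8 Mb from Ccr7 on chromosome 11.

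Vav1, an exchange factor for Rac that antigen receptors also engage, had 12.67 and 12.52 in the knock-out, against 12.83 and 12.59 in the wild-type. The ratios were -0.16 and -0.07 and the mean -0.12 ± 0.13 (SE, n = 2; limma adjusted p 0.893). Its second probe had -0.09 on each array. All 4 ratios were thus below 0 and small.

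Arhgef1 is the exchange factor that acts below Gna13. It had 12.37 and 12.70 in the knock-out, against 12.43 and 12.55 in the wild-type. The genotypes overlapped, and the ratios of -0.07 and 0.15 gave a mean of 0.04 ± 0.13 (SE, n = 2; limma adjusted p 0.981). By their brightest probes, the genes of this branch, Gna13 and Arhgef1, were both lower on array 1 and higher on array 2. Gnai2 and Grk6, outside this branch, had the same signs. For each of these genes the channel labelled with Cy3 was thus the brighter one on both arrays. The other Gna13 probes did not follow this pattern, since each kept its sign on both arrays.

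**Figure D3:**
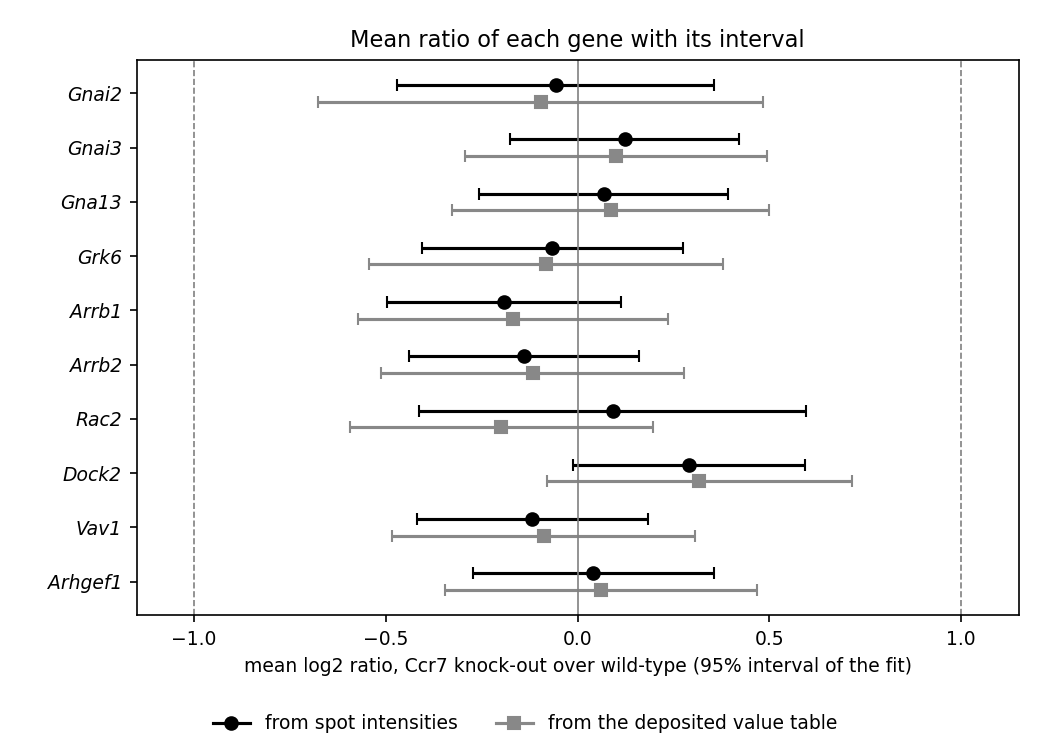
Mean log2 ratio of Ccr7 knock-out over wild-type for each gene with the 95% interval of the limma fit, from spot intensities (black circles) and from the deposited value table (grey squares). The dashed lines mark a 2-fold difference in each direction. All 10 intervals from either source lie inside them, and Dock2 has the highest mean in both.

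The values from the deposited table differed little for most genes. There Dock2 had 0.32, Arrb1 -0.17, Arrb2 -0.12 and Vav1 -0.09, with the same sign on both arrays for each. All 10 intervals again lay within 2-fold, the widest bound being 1.64-fold for Dock2. With an intensity trend and a robust prior the widest bound was 1.73-fold, for Rac2.

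Other genes of the route were grouped by role in 11 lists, and 103 of 112 listed genes were tested. None passed the limma threshold. At an unadjusted p of 0.05, 2 were higher and 9 lower in the knock-out, which is 10.7% of the 103 against 9.12% of all genes (3.15% higher and 5.97% lower). Their median log2 ratio was -0.04, beside -0.0078 for all genes. The genes named below are those with the largest mean differences in their list, none of which passed.

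Of the 7 other G alpha genes tested, 0 passed even without adjustment, and the median was -0.03. Gna11, a Gq-class subunit, had ratios of -0.30 and -0.20, and Gnas, the subunit that stimulates adenylyl cyclase, 0.23 and 0.12. The 11 beta and gamma genes had a median of 0.10. Here 4 were higher on both arrays and 1 was lower on both. Gnb5 had ratios of 0.19 and 0.77 (adjusted p 0.435), and the gamma subunit gene Gngt2 0.32 and 0.63 (adjusted p 0.354). These were the 2 genes of all 103 that were higher at an unadjusted p of 0.05. The 5 genes of G alpha chaperones and modulators had a median of -0.21, with Ric8a, a chaperone of nascent alpha subunits, at -0.67 and -0.19. Gpsm3, a G-protein modulator, had -0.58 and -0.12.

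The 7 other receptor kinase and arrestin-domain genes had a median of -0.19, and 4 of them were below 0 on both arrays, with none above 0 on both. Arrdc3, an arrestin-domain adaptor for ubiquitin ligases, had log2 levels of 9.99 and 10.37 in the knock-out, against 11.04 and 10.81 in the wild-type. The genotypes did not overlap, and the mean of -0.74 ± 0.17 (SE, n = 2) was the lowest of the 103 genes, with an adjusted p of 0.246. Grk2, another receptor kinase that acts on chemokine receptors, had -0.44 and -0.08. The 7 PI3K and PLC genes had a median of 0.04. Pik3cg, the catalytic subunit driven by beta and gamma subunits, had 0.21 and 0.20, and Pik3cd, the form downstream of antigen receptors, -0.71 and -0.17.

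Among the genes of 10 other small GTPases of the cytoskeleton the median was 0.05. Rhob, an early-response GTPase, had -1.22 and -0.20 (adjusted p 0.394), and Rhoh, a GTPase of blood cells, -0.67 and -0.17 (adjusted p 0.481). The 15 genes of other Rac and Cdc42 exchange factors and of Elmo proteins had a median of -0.04. Elmo2, whose protein family binds Dock proteins, had levels of 9.27 and 9.63 in the knock-out, against 10.03 and 10.16 in the wild-type. This gave a mean of -0.65 ± 0.13 (SE, n = 2; adjusted p 0.229). Vav2, a relative of Vav1, had 8.65 and 8.64 in the knock-out, against 9.57 and 9.12 in the wild-type, and a mean of -0.69 ± 0.15 (SE, n = 2; adjusted p 0.24). Neither gene overlapped between the genotypes, as 13.3% of all genes did not in this direction. Beside them, Dock2 had a mean ratio of 0.29 and Vav1 of -0.12, and the differences between the genes were not tested.

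Of the 6 genes of exchange factors related to Arhgef1, Arhgef18 had -0.38 and -0.34, and Akap13 -1.73 and 0.42. The median of the list was -0.08. The 12 GAP and GDI genes had a median of -0.14, of which 7 were below 0 and none above 0 on both arrays. A scaled-up channel was found for 9 of the 12. Arhgdib, a GDP dissociation inhibitor of blood cells, had -0.39 and -0.17, and Arhgap4 -0.19 and -0.36. Without scaled-up probes the median of this list was 0.05 over the 6 genes left, some of them read by a dimmer probe. The 15 effector and actin genes lay between -0.17 and 0.11, a narrow range with a median of -0.06. Rock1, a kinase that raises actomyosin contraction, had -0.72 and 0.39, and Wasf2, which activates the Arp2/3 complex below Rac, -0.05 and -0.28. The 8 genes of Rap1 and integrin activation had a median of 0.01. Rasgrp2, an exchange factor for Rap1, had -0.28 and -0.52 (adjusted p 0.42), and Fermt3, an integrin activator of blood cells, 0.28 and 0.10.

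**Figure D4:**
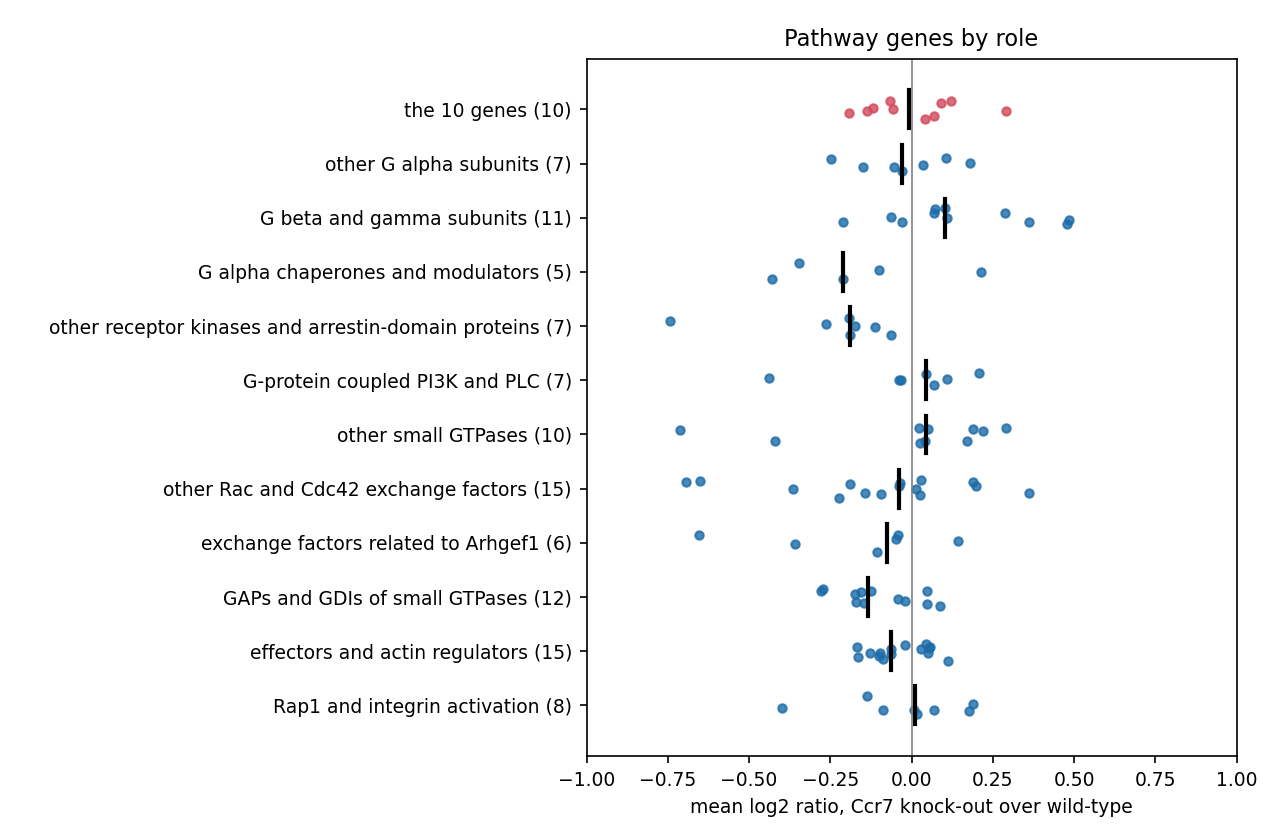
Mean log2 ratio of Ccr7 knock-out over wild-type for the 10 genes (red) and for the tested genes of 11 lists of the same route (blue), 1 point per gene, with the list's median as a black bar and its number of genes in parentheses. No point passed the threshold over all genes, and the 10 genes lie between -0.19 and 0.29.

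Some facts of the arrays bear on these values. Between 58.4% and 68.8% of gene spots were well above background in a channel, no spot was saturated, and the number of arrays limits the precision. Ccr7 itself had log2 levels of 11.44 and 11.66 in the knock-out, against 12.55 and 12.40 in the wild-type, a mean ratio of -0.93 with an adjusted p of 0.142. Whether its probe lies within the deleted part is not known here. The marker genes named next were chosen after their values were seen. The B-cell markers Pax5, Cd22, Ms4a1, Cd79a and Cd79b were well above background in both genotypes on both arrays. Ratios of Pax5 were -0.79 and -0.86 (adjusted p 0.141), while those of Ms4a1 were 1.75 and -1.23 and those of Cd79b 1.45 and -1.52, all 3 from scaled-up spots.

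T cells also use Dock2, Rac2 and Vav1. Of 9 T-cell markers tested, 0 passed over all genes, and 5 were lower on both arrays, which 30% of all genes were. At an unadjusted p of 0.05, 4 of the 9 (44.4%) were lower in the knock-out and none higher, against 5.97% of all genes lower. These were Thy1 with a mean of -0.78 (adjusted p 0.164), Cd3d with -0.60, Cd8a with -0.39, and Il7r. In the knock-out, Il7r was not well above background on either array, and Cd8a was so on only 1. Of the other markers, Cd8b1 and Lck were higher in the knock-out on both arrays. Cd3e, Cd3g and Cd4 had means of 0.03, 0.01 and -0.03. The T-cell markers' summed intensity was 11031 to 14825 in the knock-out pools and 10713 to 13086 in the wild-type pools, but Lck alone, with ratios of 0.22 and 0.10, made up 73% to 80.1% of it. The other 8 summed to 2628 and 2943 in the knock-out pools and to 2890 and 2911 in the wild-type pools. This sum leans in turn on Cd8b1, by far the brightest of the 8, with ratios of 0.25 and 0.10. The sums therefore do not show whether the T-cell signal was equal. Of markers of other cells, 2 of 4 for NK cells, 2 of 9 for myeloid and dendritic cells and 2 of 6 for stroma and endothelium passed an unadjusted p of 0.05. Of all genes 9.12% did, in either direction. For NK cells 1 was higher and 1 lower in the knock-out, and so it was for myeloid and dendritic cells. Both of stroma and endothelium were higher. None of these markers passed over all genes. Any part of such cells in the ratios of the 10 genes was not tested. In such pooled RNA, fewer cells of a type and less RNA per cell cannot be told apart.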

How the data were processed

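Spot intensity in red and green was deposited for 2 arrays, quantified by the authors with Agilent Feature Extraction 9.5.3.1, per the submitters' processing notes. Each array was read at 2 scanner gains, per the file headers. Values of the brightest spots were scaled up from the low-gain scan. Per the file headers, a log10 ratio of red over green, background-subtracted and dye-normalized, stands beside them. The deposited value table holds log2 ratios. Turned to knock-out over wild-type, they equalled the scanner's ratio within 0.001 at 42512 and 42515 of 43379 spots, and all of the others carried the low-gain flag. The median of each column was 0. The sources used here do not give how those other values were made. Probe positions are on mm8, per the file headers.

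From the intensities, background was corrected with normexp (offset 50) and ratios were normalized by loess (span 0.3, 4 iterations, the 1639 control spots having weight 0), with limma 3.58.1 in R 4.3.3. Spots with an outlier flag were left out. A probe was kept where 1 genotype was well above background on both arrays, and each gene was read by its brightest probe. Levels per channel came after Aquantile scaling between the arrays. Probes were named by RefSeq accession (24375), symbol (6301) or synonym (2426), and 8072 kept the file's name. Ratios turned to knock-out over wild-type were fitted with lmFit and eBayes (6.19 prior and 1 residual degrees of freedom). Two-sided p-values were adjusted over 17683 genes by Benjamini-Hochberg. No transcript annotation on mm8 was used, so exon or UTR positions are not given.

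The genes, the lists and the alternatives were chosen with earlier results of these data known. The rule for names took all 10 genes, Ccr7 and, from each list, the members past the threshold or otherwise the 2 with the largest mean difference.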

Additional observations from a re-analysis of the deposited data

How the results depend on the processing

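The count of 0 among the 10 genes and of 0 among the other pathway genes was the same in all 12 other settings with a test, with lowest adjusted p of 0.438 and 0.0571. The count over all genes (18, with 12 higher and 6 lower) was 0 when background was not subtracted, with the mean of all probes, with ratios not normalized within arrays, with the scanner program's ratio, with the deposited table, and when channels were fitted separately with no replicate block. It was 4 with median centring (3 higher, 1 lower), 9 with both genotypes above background (0 lower), 78 with a robust prior that follows intensity (30 higher, 48 lower), and 130 without scaled-up probes (45 higher, 85 lower). Without scaled-up probes 7 of the 10 genes were left.

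Median centring moved the median of all genes to -0.17, and no within-array normalization to -0.39. In that order, the ratio became -0.13 and -0.35 for Gnai3, -0.21 and -0.43 for Gna13, -0.17 and -0.39 for Rac2, -0.00058 and -0.22 for Dock2, and -0.26 and -0.48 for Arhgef1, each opposite in sign to the loess value. Relative to the median of all genes, Dock2 was 0.17 higher in both. In these settings 4 and 0 of the 10 intervals lay within 2-fold, against 10 in the others that kept all 10 genes and gave an interval. Dock2 and Gnai3 were above that median and Arrb1, Arrb2, Vav1 and Gnai2 below it in every setting that kept them and used both arrays. Settings that changed only the filter or the fit used the same ratios for these genes, so they could hardly change this. Median centring and no within-array normalization gave the same values relative to the median. Rac2 was -0.045 with the scanner program's ratio and -0.20 with the deposited table. Grk6 was 0.037 with the mean of probes and 0.082 without scaled-up probes. The cause of these shifts was not tested. With 1 array left out, the 10 genes' ratios ran from -0.38 to 0.55, with no test. Gnai2 was 0.27 with array 1 left out and -0.38 with array 2 left out, so its sign was not stable. The number of arrays limits all of these values. Signal over background limits dimmer probes of the lists, while all 18 probes of the 10 genes were well above background. Dim probes of the 10 genes still depended on the processing. The dimmest Gna13 probe had a mean ratio of 0.35 from spot intensities and of 0.54 with the scanner program's ratio.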
